A study of Homo sapiens with 6 samples.

Results

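The fibroblast growth factor (FGF) genes of LX-2 cells were examined as a group of 10, matched by symbol among the 60780 rows of the expression table. They were 4 ligands (FGF1, FGF2, FGF5 and FGF7), 5 receptors (FGFR1, FGFR2, FGFR3, FGFR4 and FGFRL1) and FGFBP1, the secreted FGF carrier that was manipulated in the study. LX-2 is an established human hepatic stellate cell line. The cells were cultured for 24 hours in conditioned medium of HCT116, an established human colorectal carcinoma line, and 6 libraries were sequenced. In the Vector-CM group (n = 3) the HCT116 cells carried an empty lentiviral vector, and in the FGFBP1-CM group (n = 3) they carried the same vector with FGFBP1. Both HCT116 derivatives were made by lentiviral infection with a vector that also encodes EGFP and were kept as puromycin-selected clones, whose number is not given in the sources used here. The overexpressed FGFBP1 therefore reached LX-2 cells from the medium and was not expressed from a construct in them. The labels do not say whether the libraries of a group came from separate cultures, so the p-values measure the spread between these libraries, which may be technical. Total counts were 14003780 to 18508113 per library.

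FGF ligands bind receptor tyrosine kinases of the FGFR family together with heparan sulfate, and the activated receptor signals through adaptor proteins to the ERK cascade. FGF1 and FGF2 lack a classical secretion signal and are stored on heparan sulfate of the extracellular matrix, from which FGFBP1 can mobilize them. In the liver, hepatic stellate cells are mesenchymal cells that produce matrix when activated, and FGF2 is a known mitogen for them. The study asked whether FGFBP1 from tumor cells acts on stellate cells through this ligand and receptor system, and the libraries show which of its transcripts LX-2 cells contained and whether their levels differed between the media.

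The stellate identity of the cells was checked on markers. Of 12 stellate cell genes, 11 had counts and 10 reached a mean of at least 1 CPM (counts per 1000000 counts of the scaled library). DES fell short, at a mean of 0.146 CPM, and LRAT, the retinol esterifying enzyme of quiescent stellate cells, was at 0 in the 6 libraries. The summed level of the 12 genes ranged over 3669 to 3921 CPM with the vector medium against 2823 to 3380 CPM with the FGFBP1 medium, without overlap, and VIM held most of it. Taken singly, VIM, TIMP1, SPARC and LOX did not overlap between the groups, as did 26.0% of all tested genes. COL1A1, COL1A2, COL3A1, ACTA2, PDGFRB, HAND2 and DES overlapped. Whether the difference in the sum has a part in the values below was not tested. In these bulk libraries, fewer cells of a type and less RNA per cell cannot be told apart. Of 10 colorectal epithelial genes, KRT8 alone reached 1 CPM and CEACAM5 was at 0. Their summed level was 160 to 174 CPM against 146 to 156 CPM, in the same order. The 8 hepatocyte genes summed to 39.6 to 42.4 CPM against 18.1 to 27.7 CPM, most of it SERPINA1. Of these genes, APOB (3.37 against 0.278 CPM), ALB (3.43 against 0.611 CPM) and AFP (3.11 against 0.669 CPM) were among the 20 genes past the adjusted edgeR test, and of the stellate genes TIMP1 was (335 against 258 CPM). Their part in the values below was not tested. The 5 endothelial genes summed to 14.1 to 16.2 CPM against 12.7 to 15.6 CPM, and the 5 leukocyte genes to 3.83 to 4.30 CPM against 3.36 to 5.84 CPM. On the first principal component (43.5% of the variance), FGFBP1-CM replicate 1 lay farthest from the other libraries.

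Among the ligands, FGF2 and FGF5 were abundant, FGF1 was intermediate and FGF7 was close to the detection floor. Levels of different genes were compared in FPKM, fragments per kilobase of gene and 1000000 counted fragments, a scale divided by gene length. FGF2 encodes basic fibroblast growth factor (ENSG00000138685, GRCh38 chromosome 4, 122826708 to 122898236, plus strand, 3 exon blocks). It measured 26.5, 25.8 and 24.3 FPKM in Vector-CM replicates 1 to 3 and 26.4, 26.7 and 23.9 FPKM in FGFBP1-CM replicates 1 to 3. The ranges of the groups overlapped, and replicate 3 was the lowest of each group. FGF5, which signals mainly through FGFR1 and is known as a regulator of the hair cycle, lies on the same chromosome (ENSG00000138675, 80266599 to 80336680, plus strand, 7 exon blocks). FGF5 measured 21.7, 21.8 and 21.6 FPKM in Vector-CM and 25.7, 23.0 and 22.1 FPKM in FGFBP1-CM. All 3 FGFBP1-CM libraries lay above the Vector-CM libraries on this scale, with replicate 1 the highest, whereas in CPM the groups overlapped. FGF1, acidic fibroblast growth factor, which binds every FGFR (ENSG00000113578, chromosome 5, 142592178 to 142698070, minus strand, 11 exon blocks), measured 3.48, 4.04 and 3.74 FPKM in Vector-CM and 2.89, 3.97 and 3.24 FPKM in FGFBP1-CM. Its groups overlapped, and the lowest and second lowest values were both from FGFBP1-CM.

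FGF7, keratinocyte growth factor, is a mesenchymal ligand for the epithelial splice form of FGFR2 (ENSG00000140285, chromosome 15, 49423096 to 49488775, plus strand, 5 exon blocks). It had 3, 5 and 7 counts in Vector-CM and 7, 6 and 11 counts in FGFBP1-CM. In each library these counts were at or above the 3 counts that an observed 0 would allow, a floor of 0.158 to 0.217 CPM that covers counting error only. FGF7 reads are also uncertain, because 8 pseudogenes are named after it and one of them, FGF7P1, held 106 counts over the 6 libraries against 39 for FGF7 itself. Reads of such near-identical copies may have been split between them or left uncounted.

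The sequences at the starts of 4 genes are shown, FGF2 and FGF5 as the ligands of highest level, FGF7 as the lowest ligand of the 4, and FGFBP1 as the carrier, which was also near the floor. They are RefSeq windows (GRCh38.p14) of 250 bases before to 50 bases after an annotated start, written 5′ to 3′ on the strand of the gene. Windows were found for the 9 genes looked up (FGFR1 was not), and FGF5 had 2, of which the one at the start of the gene is given. The letters were searched on both strands for TATAAA (the TATA box), GGGCGG (the GC box), TGANTCA (the AP-1 element) and GCGNGGGCG (the EGR1 element, which can overlap a GC box), and capitals mark the matches. The windows are FGF2 at chr4:122826581-122826880 (plus strand), FGF5 at chr4:80266338-80266637 (plus strand), FGF7 at chr15:49422992-49423291 (plus strand) and FGFBP1 at chr4:15938691-15938990 (minus strand).
FGF2: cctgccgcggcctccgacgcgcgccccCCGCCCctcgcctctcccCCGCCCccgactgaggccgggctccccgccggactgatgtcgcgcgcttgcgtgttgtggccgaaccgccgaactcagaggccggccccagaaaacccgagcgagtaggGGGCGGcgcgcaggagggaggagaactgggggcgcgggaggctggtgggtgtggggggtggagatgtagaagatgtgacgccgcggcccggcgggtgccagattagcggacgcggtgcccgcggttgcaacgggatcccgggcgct
FGF5: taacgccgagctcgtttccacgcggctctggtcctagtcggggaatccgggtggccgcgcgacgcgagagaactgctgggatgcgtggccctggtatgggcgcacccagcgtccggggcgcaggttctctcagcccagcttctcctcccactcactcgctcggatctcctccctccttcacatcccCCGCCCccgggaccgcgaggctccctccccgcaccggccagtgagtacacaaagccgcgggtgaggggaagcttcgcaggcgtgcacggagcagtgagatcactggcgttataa
FGF7: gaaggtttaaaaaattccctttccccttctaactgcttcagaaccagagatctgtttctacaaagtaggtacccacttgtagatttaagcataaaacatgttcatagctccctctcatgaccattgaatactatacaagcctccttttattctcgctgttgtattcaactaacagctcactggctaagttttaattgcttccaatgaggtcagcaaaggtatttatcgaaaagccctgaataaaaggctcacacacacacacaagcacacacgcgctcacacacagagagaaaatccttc
FGFBP1: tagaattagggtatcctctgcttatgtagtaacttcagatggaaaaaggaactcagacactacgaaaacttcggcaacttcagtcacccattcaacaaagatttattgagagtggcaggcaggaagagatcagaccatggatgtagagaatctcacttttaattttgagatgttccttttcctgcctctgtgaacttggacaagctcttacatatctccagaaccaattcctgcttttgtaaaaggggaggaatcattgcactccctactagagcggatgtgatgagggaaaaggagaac

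The FGF2 window was 74.7% G and C with 41 CG dinucleotides and 3 GC boxes, and the FGF5 window was 67% G and C with 31 CG dinucleotides and 1 GC box. The FGF7 and FGFBP1 windows had 40.3% and 42% G and C, with 4 and 3 CG dinucleotides and none of the 4 motifs. The median of all 35116 windows in the RefSeq table was 58.7% G and C with 14 CG dinucleotides. A GC box was present in 45% of them, TATAAA in 11.5%, the AP-1 element in 7.71% and the EGR1 element in 9.43%. FGFR2, the member of lowest mean FPKM but with the same 10 counts over the 6 libraries as FGFBP1, had 5 windows. One of them was 79.3% G and C with 52 CG dinucleotides, 5 GC boxes and 2 EGR1 elements, and the other 4 were 47.3% to 50.7% G and C with 5 to 8 CG dinucleotides and at most 1 GC box. These matches describe letters and say nothing of factor binding.

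The neighbours in the order of ligand levels differed by unequal margins. FGF2 was above FGF5 in 6 of 6 libraries, by a geometric mean ratio of 1.13 (range 1.03 to 1.22, log2 ratio 0.18 ± 0.09, SD, n = 6 libraries) in FPKM. An exact two-sided sign-flip permutation test over the 6 libraries gave p = 0.03125 for this pair, the smallest value that it can give. Each of the other neighbour pairs tested gave the same p, and all stayed at 0.03125 after Benjamini-Hochberg adjustment over the 6 pairs. The pairs were ordered by mean FPKM in these same libraries, so these p-values lend the order no support. The FPKM ranges of FGF2 and FGF5 nevertheless overlapped when libraries were not matched. This order depended on the gene length used. Per kilobase of the longest GENCODE 29 transcript, the log2 ratio was -0.01 (exact permutation p = 0.844), so the first 2 ligands could not be ordered on that scale. FGF5 exceeded FGF1 by a geometric mean ratio of 6.40 (range 5.39 to 8.90) and FGF1 exceeded FGF7 by 62.0 (range 31.2 to 136), each in 6 of 6 libraries.

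**Figure D1:**
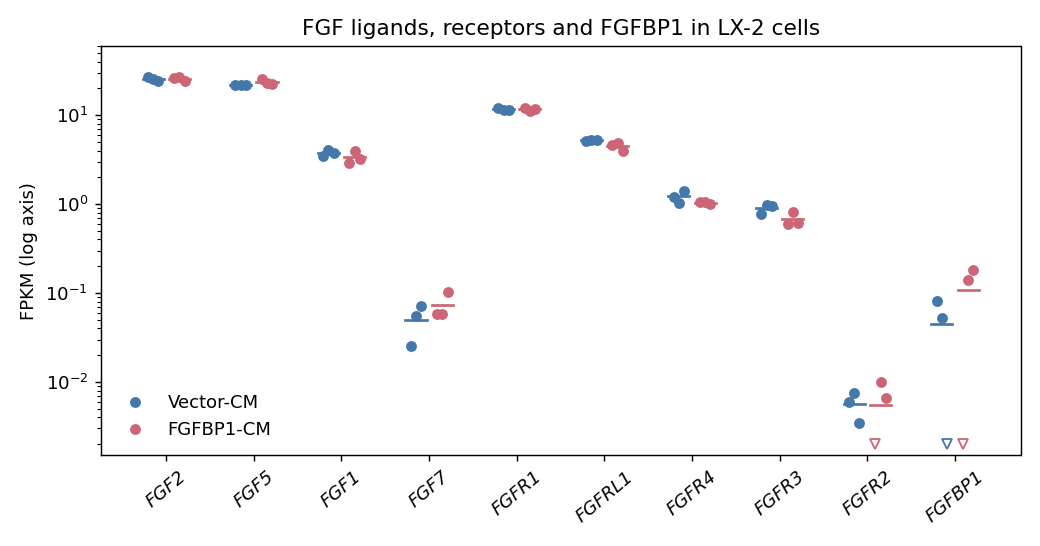
FPKM of the 10 FGF genes on a log axis, with each point 1 library (blue, Vector-CM; red, FGFBP1-CM), each bar the mean of a group, and open triangles at the foot of the axis for libraries listed at 0. FGF2, FGF5 and FGFR1 lie above 10 FPKM in the 6 libraries, whereas FGF7, FGFR2 and FGFBP1 lie at or below 0.182 FPKM.

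FGFR1 was the most abundant receptor transcript. FGFR1 encodes the receptor that mesenchymal cells typically use for FGF2 (ENSG00000077782, chromosome 8, 38400215 to 38468834, minus strand, 28 exon blocks). It measured 12.1, 11.5 and 11.4 FPKM in Vector-CM and 12.1, 11.0 and 11.6 FPKM in FGFBP1-CM. The groups overlapped throughout. FGFRL1, a receptor that binds FGFs but lacks the tyrosine kinase domain (ENSG00000127418, chromosome 4, 1009936 to 1026897, plus strand, 9 exon blocks), measured 5.17, 5.25 and 5.30 FPKM in Vector-CM and 4.62, 4.90 and 3.95 FPKM in FGFBP1-CM. It was the only one of the 7 genes tested for a difference whose groups did not overlap in CPM, where 26.0% of all 16707 tested genes did not overlap.

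FGFR4, the receptor through which FGF19 acts on hepatocytes (ENSG00000160867, chromosome 5, 177086886 to 177098144, plus strand, 19 exon blocks), measured 1.21, 1.04 and 1.41 FPKM in Vector-CM and 1.06, 1.05 and 0.998 FPKM in FGFBP1-CM. FGFR4 was highest in Vector-CM replicates 3 and 1, and Vector-CM replicate 2 lay within the FGFBP1-CM range. FGFR3, best known for its role in cartilage growth (ENSG00000068078, chromosome 4, 1793293 to 1808872, plus strand, 18 exon blocks), measured 0.779, 0.987 and 0.949 FPKM in Vector-CM and 0.591, 0.814 and 0.609 FPKM in FGFBP1-CM. The FGFR3 groups overlapped through FGFBP1-CM replicate 2, which lay above Vector-CM replicate 1. FGFR2, the receptor whose epithelial splice form binds FGF7 (ENSG00000066468, chromosome 10, 121478334 to 121598458, minus strand, 31 exon blocks), had 2, 2 and 1 counts in Vector-CM and 0, 3 and 2 counts in FGFBP1-CM, at or under the floor of 3 counts in each library.

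FGFR1 exceeded FGFRL1 by a geometric mean ratio of 2.40 in FPKM (range 2.16 to 2.95), FGFRL1 exceeded FGFR4 by 4.32 (range 3.76 to 5.05) and FGFR4 exceeded FGFR3 by 1.45 (range 1.05 to 1.79), each in 6 of 6 libraries. FGFR3 and FGFR2 were not tested because FGFR2 was at 0 in 1 library. The FGFR1 level also depended on the gene length used. The length implied by its deposited counts and FPKM was 17201 bp, against 13842 bp for its annotated exons in GENCODE 29, while both lengths were 6775 bp for FGF2. For FGFR2, which was at or under the floor, the lengths were 18813 bp and 7578 bp. With the GENCODE 29 exon length the log2 ratio of FGFR1 to FGFRL1 was 1.51 instead of 1.26, and per kilobase of the longest transcript it was 2.48. FGFR1 stayed above FGFRL1 in each of these scales.

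Expressed as a share of the summed FPKM of the 5 receptor genes, FGFR1 held 63.2% ± 2.96 (SD, n = 6; range 59.9% to 67.7%). FGFRL1 held 26.4% ± 1.95, FGFR4 6.11% ± 0.668 and FGFR3 4.27% ± 0.805, and FGFR2 held 0.0306% ± 0.0194. Of the summed FPKM of the 22 FGF genes listed as ligands, FGF2 held 48.2% ± 1.13 (range 47.1% to 49.98%) and FGF5 held 42.7% ± 1.83 (range 40.9% to 45.8%). FGF1 held 6.72% ± 0.909 and FGF7 0.117% ± 0.0519. FGF2 had a larger share than FGF5 in every library in FPKM. These shares depend on the gene length used, as do the FGF2 to FGF5 order and the FGFR1 level above.

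**Figure D2:**
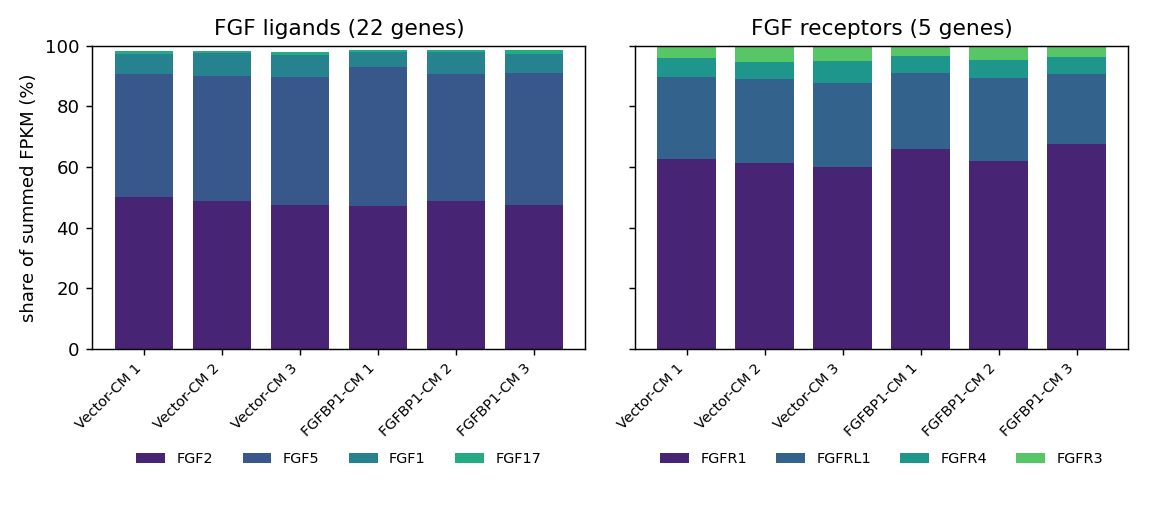
Share (%) of the summed FPKM held by each FGF ligand (left, of 22 genes) and each FGF receptor (right, of 5 genes) in the 6 libraries, with genes under 0.5% on average not drawn. The FGF2 share lies between 47.1% and 49.98% and the FGFR1 share between 59.9% and 67.7%. The shares depend on the gene length used in FPKM.

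The other 18 FGF genes listed as ligands, among them the intracellular homologue FGF14, added little. FGF3, FGF10 and FGF23 were at 0 in the 6 libraries, 13 had too few counts to be tested, with at most 40 counts over the 6 libraries, and FGF14 and FGF17 were tested. FGF17, an FGF8 subfamily ligand, had the highest level of the 18, a mean of 0.455 FPKM and a share of 0.862% ± 0.232 (SD, n = 6). FGF19, an endocrine ligand of FGFR4 with its co-receptor KLB, held 0.299% ± 0.220.

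FGFBP1 itself was close to absent from LX-2 cells. The gene (ENSG00000137440, chromosome 4, 15935569 to 15938740, minus strand, 3 exon blocks) had 2, 1 and 0 counts in Vector-CM and 0, 3 and 4 counts in FGFBP1-CM. Both groups were at or about the floor of 3 counts, so no fold is given, and at this depth no transcript of the overexpressed carrier above 0.245 CPM was seen in cells kept in the FGFBP1 medium.

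None of the 7 FGF genes that could be tested differed between the media by the quasi-likelihood test of edgeR (adjusted p under 0.05), which called 0.12% of all 16707 genes (20 genes). DESeq2 called 0 of the 7, where it called 4.75% of the 12215 genes with an adjusted p. limma also called 0, and with either pseudocount it called 1 of the 16707 genes (0.00599%). With 7 genes and such shares over all genes, a count of 0 carries little information on the members in any of these tests, and least in limma. FGF7, FGFR2 and FGFBP1 had too few counts for the test. At an unadjusted p under 0.05 there were 2 of the 7, FGFRL1 and FGFR3, both lower in FGFBP1-CM. The same rule held for 21.7% of all genes in either direction and for 10.7% in the lower direction, and the 2 genes are read against that background.

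The mean CPM of FGF2 was 175 ± 6.09 in Vector-CM against 172 ± 10.3 in FGFBP1-CM (SD, n = 3). The fitted log2 fold change was -0.02 with an SE of 0.07 (edgeR, adjusted p = 0.871). Its 95% interval ran from 0.892-fold to 1.09-fold, and the sign of this change turned when libraries were scaled by size alone. FGF5 stood at 131 ± 1.15 CPM against 139 ± 9.31 CPM, and its log2 fold change was 0.09 with an SE of 0.07 (edgeR, adjusted p = 0.453) and an interval of 0.964-fold to 1.17-fold. It was the only positive estimate among the 7. For FGF1, 19.0 ± 1.49 CPM stood against 16.6 ± 2.95 CPM, which edgeR fitted as -0.19 on the log2 scale (SE 0.12, adjusted p = 0.395) with an interval of 0.727-fold to 1.06-fold. The spread of FGF1 within FGFBP1-CM was wider than the distance between the group means.

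FGFR1 had 204 ± 4.78 CPM against 197 ± 6.47 CPM (SD, n = 3 per group), which edgeR fitted as -0.04 on the log2 scale (SE 0.06, adjusted p = 0.704) with an interval of 0.886-fold to 1.06-fold. FGF2, FGF5 and FGFR1 had the narrowest intervals of the 7 genes and rested on 17015, 13267 and 19637 counts over the 6 libraries. FGFRL1 had 23.1 ± 0.514 CPM against 19.3 ± 2.15 CPM, and its counts were 404, 319 and 350 against 371, 340 and 279. The log2 fold change of FGFRL1 was -0.26 (SE 0.10, unadjusted p = 0.0212, adjusted p = 0.159, edgeR), with an interval of 0.724-fold to 0.970-fold. FGFBP1-CM replicate 3 was the lowest library and the 3 Vector-CM libraries lay close together.

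FGFR3 rested on 48 to 70 counts per library, 68, 67 and 70 in Vector-CM and 53, 63 and 48 in FGFBP1-CM. It had 4.45 ± 0.573 CPM against 3.23 ± 0.632 CPM, which edgeR fitted as -0.46 on the log2 scale (SE 0.19, unadjusted p = 0.0311, adjusted p = 0.185) with an interval of 0.545-fold to 0.967-fold. FGFR4 rested on 70 to 105 counts per library and had 5.96 ± 0.942 CPM against 4.94 ± 0.157 CPM. Its log2 fold change was -0.27 (SE 0.15, adjusted p = 0.324, edgeR), with an interval of 0.658-fold to 1.04-fold. All 4 tested receptors thus had a negative estimate, where 49.3% of all 16707 tested genes had one, and none of the 4 passed the adjusted test.

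**Figure D3:**
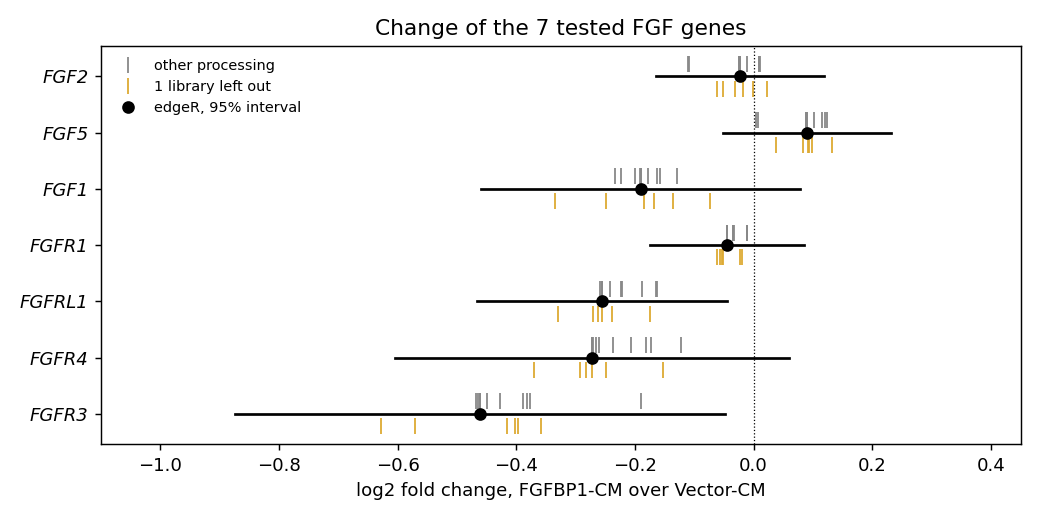
Log2 fold change (FGFBP1-CM over Vector-CM) of the 7 tested FGF genes, with the edgeR estimate as a point, its 95% interval as a line, other ways of processing as grey ticks and fits without 1 library as yellow ticks. The estimates run from -0.46 for FGFR3 to 0.09 for FGF5, and the intervals of FGFRL1 and FGFR3 alone lie below 0.

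FGFRL1, FGFR4 and FGFR3 were also the members of highest GC content, at 63.5%, 63.6% and 62.0% of their transcribed bases, against 33.3% to 51.3% for the other 7 genes. After removal of each library's trend with GC content and length, their log2 fold changes were -0.16, -0.18 and -0.38 instead of -0.26, -0.27 and -0.46, with unadjusted p of 0.0989, 0.265 and 0.0658 (edgeR), so that none of the members remained at an unadjusted p under 0.05. The estimates for FGF2 and FGF5 were -0.11 and 0.01 in this fit. The 2 genes at an unadjusted p under 0.05 also depended on single libraries. Without Vector-CM replicate 3 or without FGFBP1-CM replicate 3 there were 0, and without FGFBP1-CM replicate 2 there were 3, which were FGFRL1, FGFR3 and FGF1. Without FGFBP1-CM replicate 1 only FGFRL1 was left, and without Vector-CM replicate 2 they were FGFRL1 and FGFR4.

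Genes that share annotated exons with the members were read alongside them, since strand was not stated for the counting. NUDT6 lies opposite FGF2 and shares 804 bp with its exons, and had 95 to 170 counts per library against 2445 to 3312 for FGF2. CFAP299 shares 136 bp with FGF5 on the same strand and had 15 to 45 counts. LETM2 and the antisense gene AC087623.1 share 138 bp and 156 bp with FGFR1 on the opposite strand, with 130 to 201 and 1 to 4 counts. The log2 fold changes were 0.14 for NUDT6, 0.53 for CFAP299 and 0.06 for LETM2, and none passed the test (adjusted p = 0.619, 0.266 and 0.851, edgeR). These partners held few counts beside those of FGF2, FGF5 and FGFR1.

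The genes whose log2 CPM followed FGF2 most closely over the 6 libraries, among 9882 genes of at least 10 CPM, were MAP3K21 (Pearson r = 0.982), PCNX3 (0.975) and NAT8L (0.975). For FGFR1 they were UBE2O (0.966), WDR37 (0.963) and NUBP2 (0.961). With 6 libraries that share their depth and composition and so many genes searched, these values only describe the pattern. FGF2 was lowest in replicate 3 of each group, at 169 CPM (Vector-CM) and 161 CPM (FGFBP1-CM).

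The wider FGF system was read from 6 lists with 89 genes, of which 63 were tested. None passed the adjusted edgeR test, and 22 had an unadjusted p under 0.05, 8 higher and 14 lower in FGFBP1-CM. Over all tested genes, 21.7% had an unadjusted p under 0.05, 11.1% higher and 10.7% lower. DESeq2 called 3 of the 54 list genes to which it gave an adjusted p, namely HSPG2, AGRN and SOS2, against 4.75% of all genes, and limma called 0. The median log2 fold change was -0.19 over the 7 members, -0.04 over the 63 list genes and 0.00 over all tested genes.

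Heparan sulfate proteoglycans and their enzymes, which hold FGFs at the cell surface and in the matrix, had the lowest median, -0.20. Of 16 tested genes, 15 had a negative estimate and 8 had an unadjusted p under 0.05, all 8 lower in FGFBP1-CM. Over all tested genes, 49.3% had a negative estimate and 10.7% were lower at an unadjusted p under 0.05. This list, like the others, was chosen with earlier results of these data known. AGRN, the basement membrane proteoglycan agrin, had the lowest estimate, with counts of 5342, 3904 and 3996 in Vector-CM and 3225, 3985 and 3095 in FGFBP1-CM. It measured 283 CPM against 203 CPM without overlap, for a fitted log2 fold change of -0.48 (edgeR, SE 0.11, adjusted p = 0.0640). With the GC and length correction the AGRN estimate was -0.36 (edgeR, adjusted p = 0.0666). HSPG2, which encodes perlecan and was named after its values were seen, measured 145 CPM against 105 CPM, for a fitted log2 fold change of -0.47 (edgeR, adjusted p = 0.0568). NDST1, a heparan sulfate sulfotransferase, was the only gene of the list with a positive estimate, 0.09 (adjusted p = 0.507, edgeR).

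Receptor adaptors were split evenly in sign, with 8 positive and 8 negative estimates among 16 tested genes and a median of 0.00. At an unadjusted p under 0.05 there were 7 (edgeR), 3 higher and 4 lower in FGFBP1-CM. That rule was met by 21.7% of all tested genes, 11.1% higher and 10.7% lower. SOS2, an exchange factor that activates RAS, had the highest estimate, with counts of 752, 517 and 609 in Vector-CM and 1091, 768 and 900 in FGFBP1-CM. All 3 FGFBP1-CM libraries were above the Vector-CM libraries in CPM, and the log2 fold change was 0.42 (SE 0.08, adjusted p = 0.0568, edgeR). SHC1, an adaptor upstream of it, had the lowest, -0.23 (adjusted p = 0.105, edgeR).

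Feedback inhibitors of the pathway had 7 positive and 3 negative estimates among 10 tested genes, with a median of 0.05. The share of negative estimates over all tested genes was 49.3%. SPRY3, a Sprouty protein, had the highest, 0.64 (adjusted p = 0.139, edgeR), from 26 to 83 counts per library, and IL17RD, a membrane inhibitor of FGF signaling, had the lowest, -0.18 (adjusted p = 0.164, edgeR). Both were among the 4 with an unadjusted p under 0.05, a rule met by 21.7% of all tested genes, together with DUSP4 and SPRED3, which were named after their values were seen and were higher in FGFBP1-CM. Of 12 tested early targets of ERK, 2 had an unadjusted p under 0.05 (edgeR), both higher in FGFBP1-CM, against 11.1% of all tested genes. The early targets had 8 positive and 4 negative estimates and a median of 0.12. FOS had the highest, with counts of 43, 32 and 37 in Vector-CM and 65, 59 and 57 in FGFBP1-CM, for a fitted log2 fold change of 0.56 (edgeR, SE 0.18, adjusted p = 0.111) without overlap. EGR2 had the lowest, -0.40 (adjusted p = 0.427, edgeR), from at most 19 counts per library. EGR1, which the paper places downstream of FGFR1 and ERK1/2 in these cells, was named after its values were seen. Its transcript, with 181 to 470 counts per library, was fitted as 0.36 on the log2 scale (edgeR, adjusted p = 0.241, SE 0.17). The groups overlapped. By Western blotting, the paper reports more EGR1 protein in LX-2 cells with the FGFBP1 medium than with the vector medium. These libraries hold RNA only, so that rise in protein was not tested here.

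Among carriers, co-receptors and receptor partners, 7 of 12 genes were tested, with a median of -0.06. FGFBP3, a paralog of FGFBP1, had the highest estimate, 0.56 (SE 0.41, adjusted p = 0.454, edgeR), from 7 to 27 counts per library. That estimate was 0.16 without FGFBP1-CM replicate 1, its highest library, and 0.92 without Vector-CM replicate 2. S100A13, a partner of FGF1 in its release from cells, had the lowest, -0.20 (adjusted p = 0.192, edgeR), and was the only one at an unadjusted p under 0.05. Over all tested genes, that rule held for 21.7%, and for 10.7% in the lower direction. From the list of other FGF ligands, the genes tested were FGF17 at 0.07 (adjusted p = 0.914) and FGF14, an intracellular FGF homologue, at -0.16 (adjusted p = 0.680, edgeR).

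**Figure D4:**
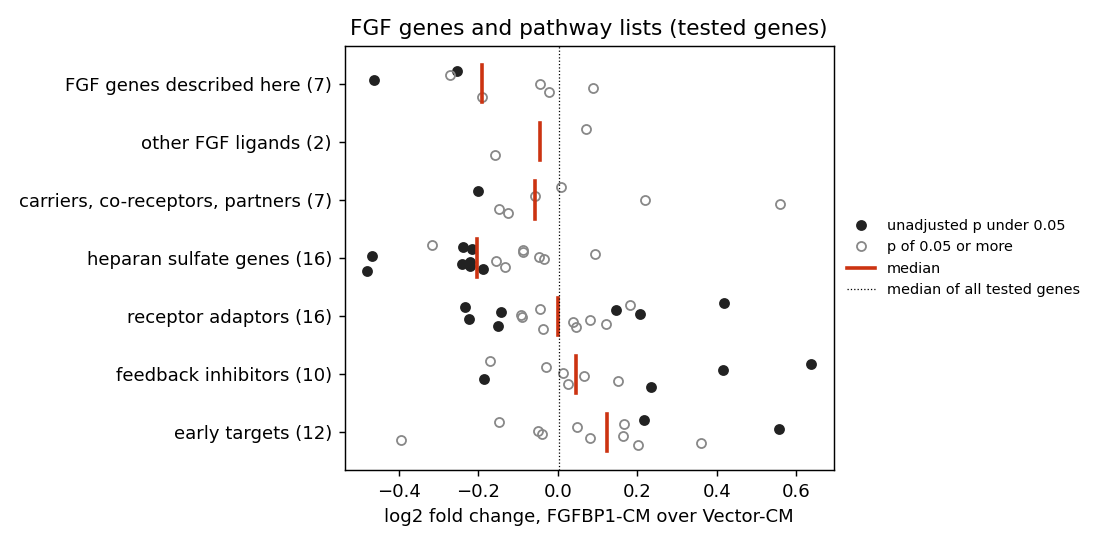
Log2 fold change (FGFBP1-CM over Vector-CM) of each tested gene of the 10 FGF genes and of the 6 lists, with filled points for an unadjusted p under 0.05 (edgeR), a red bar for the median of a list and a dotted line for the median of all tested genes. The median of the heparan sulfate genes is -0.20 and that of the early targets is 0.12, and no gene passed an adjusted p under 0.05.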

How the data were processed

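RNA sequencing libraries of LX-2 cells in Vector-CM (n = 3) and FGFBP1-CM (n = 3) were grouped and numbered by the sample labels. Reads were aligned by the authors with HISAT2 2.0.5 and assigned to genes with featureCounts 1.5.0-p3, whose raw counts were deposited. The deposited FPKM values were computed by the authors from gene length and the same counts. The submitters' processing notes list hg18, DESeq2 1.16.1 and edgeR, while 96.3% of the Ensembl identifiers were found in GENCODE 29 (GRCh38), whose coordinates are printed and need not be those used for counting. The gene length implied by count and FPKM equalled the GENCODE 29 exon length within 1 bp for 59.7% of genes. Poly(A) selection and depletion of ribosomal RNA are both described, and strandedness is not given in the sources used here. Reads of overlapping genes and near-identical copies may therefore be misassigned or lost.

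Counts were tested with edgeR 4.0.16 (R 4.3.3) by the quasi-likelihood F-test after filterByExpr and TMM scaling, with Benjamini-Hochberg adjustment over 16707 genes (threshold 0.05). The SE is the size of the log2 fold change over the square root of F, and CPM are relative to TMM-scaled library sizes. Ligand and receptor levels were compared on FPKM. Alternatives were RLE or library-size scaling, no filter, a minimum mean of 1 CPM, DESeq2 1.42.0 (Wald test), limma 3.58.1 with a pseudocount of 1 or 0.1 on FPKM, a block for the replicate number, a GC and length correction (loess, span 0.3), and leaving out each library. Other gene lengths were added after the data were seen. The procedures were tested on simulated counts. Same-group libraries differed by more than sampling noise, so none were merged. Members and lists were chosen with earlier results of these data known. Besides the members, the genes named were the extremes of each list, any list gene past the threshold, overlapping genes, pseudogenes and the 3 genes most like FGF2 and FGFR1, except where stated.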

Additional observations from a re-analysis of the deposited data

How the results depend on the processing

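None of the members passed an adjusted p under 0.05 in any of the 16 alternative fits. At an unadjusted p under 0.05 there were 2 in the main fit. There was 1 in DESeq2 (FGFRL1) and 1 in limma with each pseudocount (FGFR3 with 1, FGFRL1 with 0.1). With the GC and length correction there were 0, and with that correction and the replicate block there was 1 (FGF1). The sign of FGF2 turned to 0.0101 with library size only and to 0.00884 and 0.00913 in limma on log2(FPKM + 1) and log2(FPKM + 0.1), and it ranged from -0.0609 to 0.0226 on leaving out each library. That of FGF17 ranged from -0.144 to 0.263 and that of LETM2 from -0.0380 to 0.205 on leaving out each library. The cause was not tested. The estimate for FGFBP3 was 0.127 in limma on log2(FPKM + 1), and 0.156 to 0.920 on leaving out each library. The other members kept their sign in every fit.

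Of the list genes, 0 passed in the edgeR test. The number was 8 with no filter on low counts, a fit that gave genes of like level the same spread. Its prior degrees of freedom were infinite, against 9.32 in the main fit. The 8 genes were HSPG2, AGRN, SDC4 and GPC3 (lower in FGFBP1-CM) and SOS2, EGR1, PHLDA1 and CCND1 (higher). GPC3 had only 4, 5 and 7 counts in Vector-CM and 0, 1 and 0 counts in FGFBP1-CM. The number was 3 with DESeq2 (HSPG2, AGRN and SOS2), 1 with the replicate block (SOS2), 1 with the GC and length correction with the replicate block (HSPG2) and 22 with an unadjusted p under 0.05. It ranged from 0 to 7 on leaving out each library, with 7 without FGFBP1-CM replicate 2, 2 without FGFBP1-CM replicate 3 (HSPG2 and SOS2) and 1 without FGFBP1-CM replicate 1 (HSPG2). Over all genes, the 20 calls became 1382 with no filter, 580 with DESeq2, 38 with RLE scaling, 11 at a mean of at least 1 CPM and 1 in limma with either pseudocount. On leaving out 1 library they became 883 without FGFBP1-CM replicate 2, 402 without FGFBP1-CM replicate 3, 72 without FGFBP1-CM replicate 1, and 4 to 6 without a Vector-CM library. They became 90 with the replicate block and 129 with the block and the GC and length correction. For each gene the mean log2 CPM of the group was subtracted, and the remainders of same-numbered libraries of the 2 groups were correlated. These correlations were -0.0940, -0.0265 and 0.111 over 16707 genes, so the numbers were not taken as pairs.

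The log2 ratio of FGF2 to FGF5 was 0.363 in CPM, not divided by length, and -0.00903 per kilobase of the longest GENCODE 29 transcript, against 0.178 in FPKM. That of FGFR1 to FGFRL1 was 3.25 in CPM, 1.51 per kilobase of the GENCODE 29 exons and 2.48 per kilobase of the longest transcript, against 1.26 in FPKM. Depth limits FGF7, FGFR2 and FGFBP1, which had 39, 10 and 10 counts over the 6 libraries.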
